A study of Mus musculus with 6 samples.

Results

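The transcripts described here are 48 genes of the cell division cycle, measured in alveolar macrophages, the resident macrophages of the lung airspaces. They were chosen by their role in the cycle and matched by symbol to the 46078 gene rows of the count table, where all 48 were found. By role they comprise 19 genes of DNA replication and the G1/S transition (called S phase here), 22 of G2 and mitosis (G2/M), the 3 D-type cyclins, and 4 inhibitors of the cycle. Polyadenylated RNA came from macrophages sorted from untreated mouse lungs, with 3 libraries per genotype. Car4fl/fl mice (3 libraries, called control) carried loxP-flanked alleles of Car4, the gene of the membrane-anchored carbonic anhydrase 4. Car4fl/fl-CD11cCre mice (3 libraries, called Cre) carried these floxed alleles and a Cre recombinase under CD11c control, where CD11c is the integrin chain that Itgax encodes. Both groups were floxed and no group carried the Cre without floxed alleles, so Cre activity and loss of Car4 cannot be told apart. The sources used here give neither age nor sex of the mice.

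Alveolar macrophages are known to persist largely by division of resident cells under GM-CSF, with little input from blood monocytes in the healthy lung. A dividing cell first loads the MCM helicase onto replication origins, then releases E2F transcription factors from the retinoblastoma protein Rb1 through cyclin D and cyclin E kinases, copies its DNA, and enters mitosis under cyclin B with Cdk1. The inhibitors encoded by Cdkn1a, Cdkn1b and Cdkn2c restrain these kinases. S phase genes are classically driven from E2F sites, and G2/M genes from a cell cycle homology region (CHR) beside CCAAT boxes bound by NF-Y.

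Of the 48 members 38 had at least 1 entry, 43 windows in all, among RefSeq promoter windows of GRCm38.p6, which run from 250 bases before to 50 bases after a start. Entries were lacking for Mcm4, Gins2, Ccne2, Ccna2, Aurkb, Tpx2, Smc4, Ccnd1, Ccnd2 and Rb1. The 150 bases before the start are shown for a pair of S phase genes and a pair of G2/M genes, because they hold the letters counted in the next paragraph. Capitals mark E2F letters (TTCCCGC or TTGGCGC), CHR letters (TTTGAA or TTCGAA) and CCAAT, each on either strand, so that TTCAAA and ATTGG are CHR letters and CCAAT read from the other strand. Rrm1, the large subunit of ribonucleotide reductase, lies at chr7:102441545-102441694 on the plus strand, and Uhrf1, which carries DNA methylation through replication, at chr17:56303187-56303336 on the plus strand. Uhrf1 has another window, for a start further downstream with no E2F letters in the 250 bases before it, and the one with such letters is shown. Cdk1, the mitotic kinase, lies at chr10:69352913-69353062 and Top2a, the topoisomerase that untangles replicated chromosomes, at chr11:99024190-99024339, both on the minus strand.
Rrm1: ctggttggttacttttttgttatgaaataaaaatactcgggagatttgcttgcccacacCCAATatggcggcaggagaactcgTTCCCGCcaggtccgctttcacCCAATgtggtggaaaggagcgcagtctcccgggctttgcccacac
Uhrf1: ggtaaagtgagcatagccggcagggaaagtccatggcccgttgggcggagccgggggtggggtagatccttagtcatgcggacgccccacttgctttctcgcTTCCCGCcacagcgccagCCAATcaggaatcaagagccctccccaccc
Cdk1: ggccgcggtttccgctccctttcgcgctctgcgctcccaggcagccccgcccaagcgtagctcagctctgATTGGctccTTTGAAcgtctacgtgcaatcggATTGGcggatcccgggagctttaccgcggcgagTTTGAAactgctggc
Top2a: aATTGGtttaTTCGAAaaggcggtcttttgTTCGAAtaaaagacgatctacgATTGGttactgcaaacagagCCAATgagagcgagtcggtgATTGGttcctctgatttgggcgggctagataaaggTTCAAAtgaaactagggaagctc

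The letters were counted by class, and the difference between classes was not tested. In the 250 bases before the start, E2F letters stood in 7 of 18 S phase windows (38.9%) and 3 of 18 G2/M windows (16.7%), against 5.62% of all 32851 windows. Mcm7 and Uhrf1 each have 2 of the S phase windows, and by gene E2F letters stood in 6 of 16 S phase and 3 of 18 G2/M members. The form TTCCCGC alone stood in 5 of 18 S phase and 0 of 18 G2/M windows, against 3.82% of all. CHR letters stood in 3 of 18 S phase windows (16.7%) and in 9 of 18 G2/M windows, against 17.1% of all windows. With the 50 bases after the start included, CHR letters stood in 14 of 18 G2/M windows (77.8%) against 19.2% of all. CCAAT stood in 13 of 18 S phase and 16 of 18 G2/M windows, against 33.8% of all, and its letters can overlap those of TTGGCGC on the opposite strand. Of the windows of inhibitors, 1 of 5 held E2F letters and 0 of 5 held CHR letters. A match describes letters and not a bound site.

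The libraries held 53824475 to 65443314 counts in genes, and 3 counts correspond to 0.0465 to 0.0557 CPM, the count scaled to a common library total. Levels are CPM after TMM, a normalisation for library composition, and log2 fold changes are Cre over control. Car4 was at 499, 385 and 270 CPM in the control libraries and at 40.2, 46.9 and 36.3 CPM in the Cre libraries, with an adjusted p of 0.0047 in edgeR that became 0.0549 without control library 2. All 11 listed alveolar macrophage markers were detected in every library, among them Siglecf, Marco, Pparg and Mrc1. Their summed level was 23310 to 26630 CPM in the controls and 28500 to 42160 CPM in the Cre libraries, mostly from Chil3, at 14420 to 17830 CPM in the controls and 18930 to 32960 CPM in the Cre libraries. By gene 5 of the 11 were above and 6 below control, and the median of their log2 fold changes was -0.06. Single markers still differed, and the 11 include Car4 itself and Itgax, the gene of CD11c. Their median absolute log2 fold change was 0.285, against 0.106 for all tested genes. In edgeR 54.5% reached an unadjusted p under 0.05, against 12.8% of all tested genes. DESeq2 called 5 of the 11, against 2.32% of its tested genes higher and 1.37% lower. The number of calls over all genes depended on single libraries, most of all on Cre library 1, without which edgeR called 249 genes higher and 37 lower in place of 1 and 1, while the count of members called was 0 in each direction without any one of the 6.

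Cell cycle transcripts had nearly the same level in both genotypes. All 48 members passed the filter on low counts, and edgeR's quasi-likelihood test with Benjamini-Hochberg adjustment over 15147 tested genes called 0 of them higher and 0 lower at an adjusted p under 0.05. The background was sparse in that test, with 0.0066% of tested genes called higher, 0.0066% lower and 0.0132% in either direction. DESeq2 called 2.32% of its tested genes higher and 1.37% lower, and of the 48 members it also called 0, with a smallest adjusted p of 0.299. At an unadjusted p under 0.05, edgeR had 1 member higher, Bub1, and 0 lower, which is 2.08% of the members. Of all tested genes 6.54% were higher and 6.28% lower at that level, 12.8% in all. For 2 members, Bub1 and Cdc45, every Cre value exceeded every control value, and for 0 members the reverse held, against backgrounds of 8.63% and 9.22% of tested genes, 17.9% in all.

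The intervals of these differences were narrow. The 95% interval of every member lay inside a 1.5-fold change in either direction, and that of 36 of the 48 inside a 1.25-fold change. The lowest bound was a log2 fold change of -0.58, for Gins2, and the highest 0.56, for Ccnd1. The median log2 fold change was -0.02 for S phase, -0.005 for G2/M, 0.08 for D cyclins and 0.04 for inhibitors, against -0.002 over all tested genes. The median absolute log2 fold change was 0.04 for the members and 0.11 for all tested genes. Member means ran from 2.09 to 476 CPM around a median of 14.6 CPM for all tested genes, and the background was not matched for level. In bulk RNA fewer cycling cells and less RNA per cycling cell cannot be told apart, and a level gives no share of dividing cells.

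**Figure D1:**
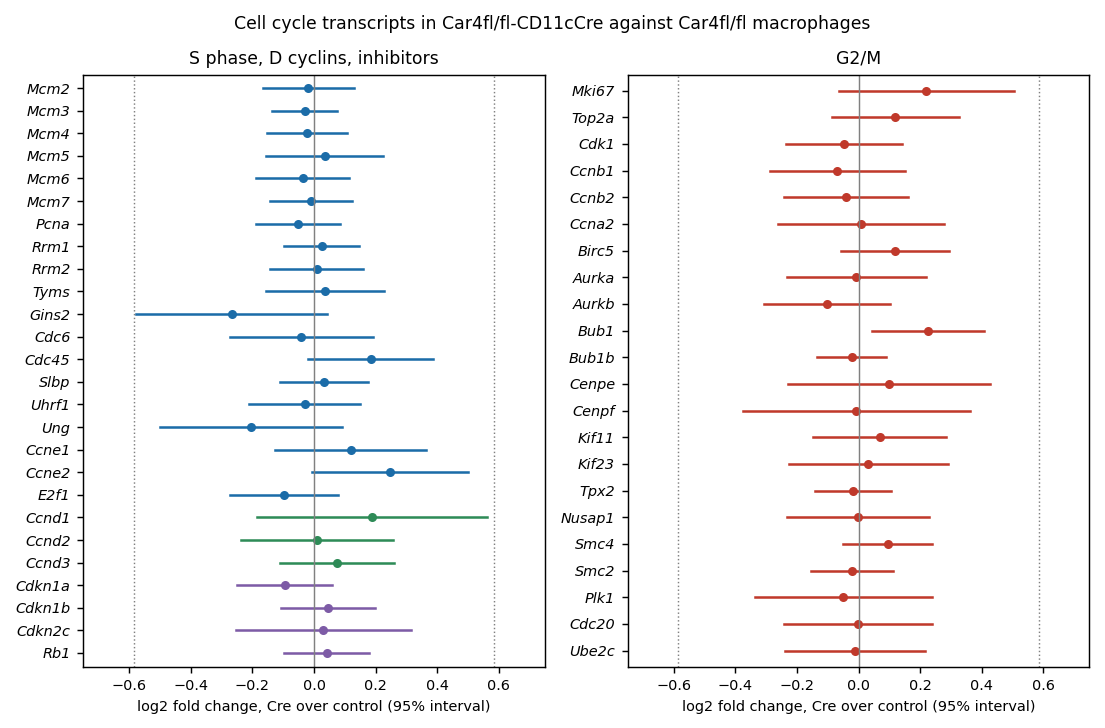
Log2 fold change of each of the 48 members, Cre over control, with its 95% interval from edgeR's quasi-likelihood fit on 3 libraries per group. Dotted lines mark a 1.5-fold change, and every interval lies between them, while that of Bub1 is the only one that leaves out 0.

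The helicase genes Mcm2 to Mcm7, whose products form the ring that unwinds DNA at origins, had closely matched levels in both genotypes. Mcm3 was at 73.2, 70.0 and 72.8 CPM in the control libraries and at 71.8, 70.7 and 69.1 CPM in the Cre libraries. Mcm6 was at 70.1, 68.7 and 62.2 CPM in the controls and at 69.3, 64.8 and 61.9 CPM in the Cre libraries. The groups overlapped for both genes. The log2 fold changes of the 6 subunits lay between -0.04 for Mcm6 and 0.03 for Mcm5, with standard errors of 0.05 to 0.08. Per kb of transcript the control means of the subunits ran from 11.6 ± 0.811 CPM per kb (SD, n = 3) for Mcm5 to 23.8 ± 0.573 CPM per kb for Mcm3. Mcm6 stood next to Mcm3, at 23.0 ± 1.44 CPM per kb, a gap within their spread. Over the union of all annotated exons the order differed, from 6.335 CPM per kb for Mcm2 to 19.2 for Mcm3. Mcm4 was then at 15.6 and Mcm6 at 14.4 CPM per kb.

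Pcna, the sliding clamp of the replicative polymerases, was the most abundant S phase member. Its levels were 168, 157 and 158 CPM in the controls and 153, 164 and 148 CPM in the Cre libraries, with overlapping groups. The log2 fold change was -0.05 ± 0.06 (SE; edgeR adjusted p 0.788). Pcna (ENSMUSG00000027342) has processed copies in the genome, and the row Pcna-ps2 held 26 to 45 counts per library, so a few reads could be split between them.

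The genes of nucleotide supply had overlapping levels in the genotypes. Rrm1 was at 64.8 ± 0.375 CPM in the controls against 66.0 ± 3.57 CPM in the Cre libraries, and Rrm2, the small subunit that is made in S phase, at 40.1 ± 2.84 against 40.4 ± 1.62 CPM. Tyms, which makes thymidylate, was at 11.8 ± 0.333 against 12.1 ± 0.864 CPM. All 3 pairs of groups overlapped. Slbp, which binds the stem loop of histone mRNA, was at 45.4 ± 2.97 against 46.4 ± 1.72 CPM, and Uhrf1 at 28.2 ± 2.17 against 27.6 ± 1.88 CPM.

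The S phase members farthest from 0 were low in abundance and went in both directions. Gins2, a subunit of the GINS part of the replicative helicase, was at 17.1, 14.2 and 12.4 CPM in the controls and at 11.0, 13.5 and 11.6 CPM in the Cre libraries. The log2 fold change was -0.27 ± 0.13 (SE; edgeR adjusted p 0.464), and control library 1 was the highest of the 6. Of its 4097 exon bases 2758 are shared with Gse1 on the opposite strand, and the sources used here do not state whether counting used strand, so reads of both genes may be mixed. Cdc45, which works with MCM and GINS, was at 8.80, 8.41 and 8.66 CPM in the controls and at 9.11, 10.04 and 10.2 CPM in the Cre libraries. Of its 3506 exon bases 209 are shared with Ufd1 on the opposite strand. The Cdc45 groups did not overlap, and the log2 fold change was 0.18 ± 0.09 (SE; edgeR adjusted p 0.435). These genes, and those of nucleotide supply above, were singled out after their values were seen.

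Cyclin E genes and the transcription factor E2f1 also passed no test. Ccne2, one of the cyclin E genes, was at 6.19, 7.12 and 6.20 CPM in the controls and at 7.05, 8.04 and 8.06 CPM in the Cre libraries. The log2 fold change was 0.25 ± 0.11 (SE; edgeR adjusted p 0.402). Its lowest Cre value lay just under its highest control value. Of the 3495 exon bases of Ccne2 609 are shared with Ints8 on the opposite strand. Ccne1 was at 6.40 ± 0.238 against 6.95 ± 0.617 CPM. E2f1, the activating E2F of the G1/S transition, was at 62.7 ± 3.72 against 58.6 ± 5.26 CPM, and Cdc6, which loads MCM, at 8.22 ± 0.642 against 7.99 ± 0.461 CPM. Ung, which removes uracil from DNA, was at 7.13 ± 0.834 against 6.19 ± 0.633 CPM, with overlapping groups.

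Among G2/M members Mki67, the gene of the proliferation antigen Ki-67, was the most abundant in CPM. It was at 113, 148 and 158 CPM in the controls and at 164, 149 and 175 CPM in the Cre libraries. Control library 1 was the lowest of the 6. Control library 2 lay just under the lowest Cre value, and only control library 3 lay inside the Cre range. The log2 fold change was 0.22 ± 0.12 (SE; edgeR adjusted p 0.519), with a 95% interval from -0.06 to 0.50. Mki67 (ENSMUSG00000031004) spans chr7:135689784-135716361 of GRCm38, minus strand, with 14 exon blocks in GENCODE M21. Top2a was at 94.4 ± 11.2 against 103 ± 5.46 CPM, and it too was lowest in control library 1, at 82.1 CPM.

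Bub1, a kinase of the spindle checkpoint, had the smallest p of the members. It was at 12.6, 13.4 and 14.7 CPM in the control libraries. The Cre libraries were closely alike, at 15.8, 15.8 and 15.9 CPM, and lay above all controls. The log2 fold change was 0.22 ± 0.08 (SE; edgeR unadjusted p 0.0216, adjusted p 0.294). Bub1b, which encodes the checkpoint protein BubR1, did not share this order, at 104, 103 and 109 CPM in the controls and 102, 104 and 106 CPM in the Cre libraries.

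Smc4, a core subunit of the condensin complexes that compact mitotic chromosomes, was at 123, 116 and 133 CPM in the controls and at 131, 129 and 137 CPM in the Cre libraries. The groups overlapped, and the log2 fold change was 0.09 ± 0.06 (SE; edgeR adjusted p 0.605). Its partner Smc2 was at 52.7 ± 3.10 CPM in controls and 52.0 ± 1.59 CPM in Cre libraries, and its log2 fold change was -0.02 ± 0.06 (SE).

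The kinases and cyclins that drive entry into and exit from mitosis had overlapping levels in the genotypes. Cdk1 was at 17.0 ± 0.971 against 16.5 ± 1.15 CPM, and its cyclin partners averaged 8.53 ± 0.516 and 8.12 ± 0.456 CPM for Ccnb1 in controls and Cre libraries and 23.3 ± 2.22 against 22.7 ± 1.48 CPM for Ccnb2. Ccna2, the cyclin of S and G2, was at 20.2 ± 2.80 against 20.3 ± 2.13 CPM. Every one of these groups overlapped. The row Ccnb2-ps, named as a copy of Ccnb2, held 52 to 72 counts per library, against 1285 to 1462 for Ccnb2. Some reads could thus be split between these rows. The mitotic kinases Aurka, Aurkb and Plk1 had log2 fold changes of -0.01, -0.10 and -0.05, and the activator and the conjugating enzyme of the anaphase-promoting complex, Cdc20 and Ube2c, had -0.002 and -0.01. The motor, spindle and kinetochore genes Cenpe, Cenpf, Kif11, Kif23, Tpx2 and Nusap1 had log2 fold changes between -0.02 and 0.10, and Birc5, the survivin subunit of the chromosomal passenger complex, had 0.12 ± 0.08 (SE).

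The D cyclins, which couple growth factor signals to Cdk4 and Cdk6, differed far more from each other than between genotypes. Ccnd2 was at 418, 456 and 549 CPM in the controls and at 512, 480.2 and 439.6 CPM in the Cre libraries, with the highest and the lowest of the 6 values both in controls. Ccnd3 was at 75.4, 74.8 and 80.2 CPM in the controls and at 86.2, 71.2 and 85.5 CPM in the Cre libraries. Ccnd1 was at 1.96, 1.81 and 2.08 CPM in the controls and at 2.42, 2.28 and 1.97 CPM in the Cre libraries. All 3 overlapped between genotypes, with log2 fold changes of 0.01 ± 0.11, 0.08 ± 0.08 and 0.19 ± 0.16 (SE) for Ccnd2, Ccnd3 and Ccnd1. Per kb of transcript the control means were 75.0 ± 10.7 CPM per kb for Ccnd2, 36.3 ± 1.39 CPM per kb for Ccnd3 and 0.521 ± 0.0354 CPM per kb for Ccnd1, and these values lay farther apart than their spread. Ccnd1 shares 1100 and Ccnd3 361 of their exon bases with a gene on the opposite strand, and Ccnd2 shares 740 with 2 such genes.

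Of the 4 inhibitors 3 were above and 1 below control, and none passed the test. Cdkn1a, which encodes p21, was at 363, 379.5 and 389 CPM in the controls and at 367, 325 and 368 CPM in the Cre libraries, and Cre library 2 was the lowest. The log2 fold change was -0.10 ± 0.07 (SE; edgeR adjusted p 0.627). Cdkn1b, which encodes p27, was at 94.0, 89.5 and 87.2 CPM in the controls and at 85.6, 94.1 and 99.6 CPM in the Cre libraries. Rb1, the pocket protein that holds E2F in check, was at 72.5, 75.6 and 66.6 CPM in the controls and at 76.2, 72.4 and 72.5 CPM in the Cre libraries. Groups overlapped for both, and their log2 fold changes were 0.05 ± 0.07 and 0.04 ± 0.06 (SE). Cdkn2c, the INK4 inhibitor p18, was at 10.4 ± 1.601 against 10.6 ± 0.569 CPM.

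Per length, Cdkn1a stood at the top and Ccnd1 at the bottom of the set. In controls Cdkn1a was highest at 181 ± 6.37 CPM per kb of transcript, followed by Pcna at 106 ± 4.09, Ccnd2 at 75.0 ± 10.7 and Ccnd3 at 36.3 ± 1.39 CPM per kb. Smc4 and Bub1b came next at 28.8 ± 2.00 and 28.7 ± 0.898 CPM per kb, which did not differ beyond their spread, and Mki67, with its long transcript, was at 13.9 ± 2.33 CPM per kb. Among the lowest were Ccne2, at 2.16 ± 0.177, Cenpf, at 2.501 ± 0.522, and Ccnd1, at 0.521 ± 0.0354 CPM per kb. Lengths are those of the principal transcript in GENCODE M21. With the union of all annotated exons Cdkn1a, Pcna and Ccnd2 were still the highest of these, at 106, 67.0 and 50.4 CPM per kb, while Ccnd3 was at 8.75 CPM per kb.

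**Figure D2:**
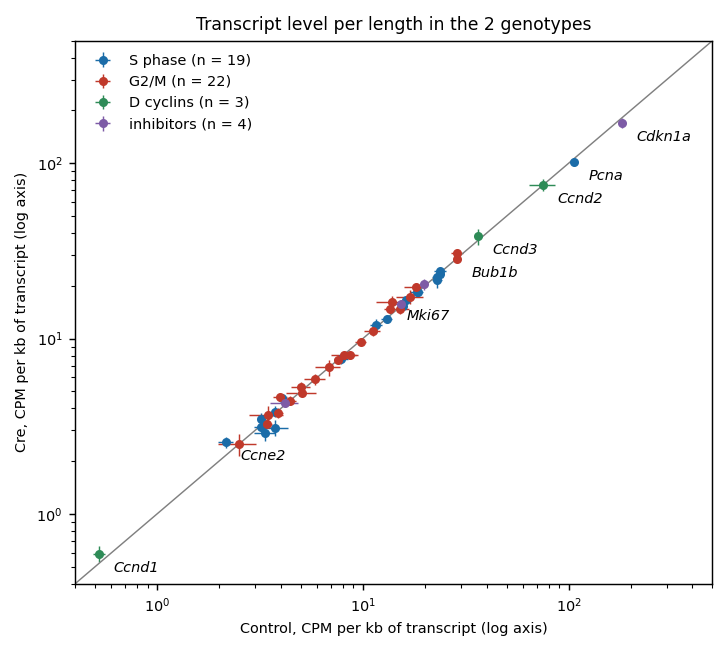
Mean level of the 48 members per kb of principal transcript in control (horizontal) and Cre (vertical) libraries, both on log axes, with SD bars over 3 libraries. Points lie along the line of equality from Ccnd1, at 0.521 CPM per kb in controls, to Cdkn1a, at 181 CPM per kb.

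The median spread among libraries of 1 genotype was larger in G2/M than in S phase members. The median within-group standard deviation, on the log2 scale of CPM plus 0.5, was 0.08 for S phase and 0.11 for G2/M members, against 0.11 for all tested genes. Counting error was at most 5.04% of the level for S phase and 4.5% for G2/M members, and 9.0% for Ccnd1. Control library 3 held the highest value of the 6 for 16 of 22 G2/M members and the lowest for 0, and control library 1 held the lowest for 10 and the highest for 0. The median log2 deviation of G2/M members from their control means was -0.07, -0.04 and 0.14 in control libraries 1, 2 and 3, and 0.01, -0.04 and 0.08 in Cre libraries 1, 2 and 3. The Cre medians thus lay between the lowest and the highest control median.

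S phase members did not follow that order. Their medians were 0.02, 0.01 and -0.03 in the controls and 0.05, -0.02 and -0.07 in the Cre libraries, and Cre library 3 held the lowest value for 10 of 19. The summed CPM of G2/M members divided by that of S phase members was 0.971, 1.06 and 1.21 in the controls and 1.11, 1.08 and 1.25 in the Cre libraries, with library 3 the highest of each genotype. Replicate numbers are names, and no label pairs libraries by them. The summed CPM of 10 interstitial macrophage markers ran the other way from G2/M in the controls, at 1656, 1001 and 208 CPM, and was 158, 188 and 337 CPM in the Cre libraries, mostly from Cd74 and H2-Aa. Their part in the G2/M levels was not tested. Summed markers of T and NK cells were at 1.73 to 2.56 CPM in controls and 2.74 to 5.07 CPM in Cre libraries, and those of B and plasma cells at 13.1 to 14.2 against 12.5 to 46.3 CPM. The T cell marker Cd3e was at 0 in no library.

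**Figure D3:**
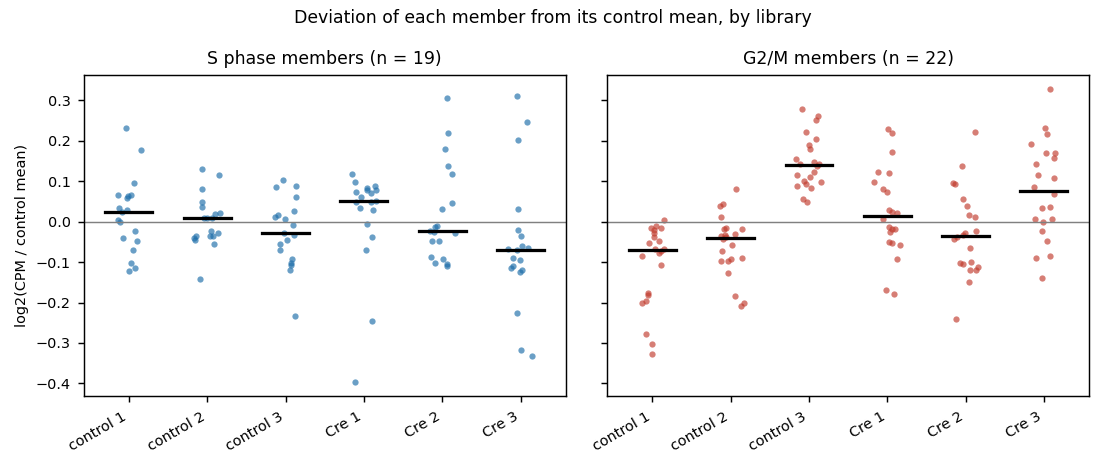
Log2 ratio of each member's CPM to its control mean in each of the 6 libraries, for 19 S phase and 22 G2/M members; bars are medians. G2/M medians run from -0.07 in control library 1 to 0.14 in control library 3, with the Cre libraries between them, and S phase medians from -0.07 in Cre library 3 to 0.05 in Cre library 1.

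Further genes of the cycle, listed by role, gave the same result in edgeR. Of 52 other replication genes all were tested, 31 were above and 21 below control, 0 were called, and the median log2 fold change was 0.03. The lowest p belonged to Rpa1, a subunit of the single-strand binding protein RPA, at 91.1 ± 5.27 against 79.4 ± 3.83 CPM, and to Tipin, of the fork protection complex, at 14.5 ± 0.448 against 12.2 ± 1.17 CPM. For both the Cre values lay under all control values, with adjusted p of 0.247 and 0.301 in edgeR. In the whole list the groups did not overlap for 5 genes above and 4 below control, 17.3% against 17.9% of all tested genes, and an unadjusted p under 0.05 was reached by 3 higher and 2 lower. The 3 higher, named after their values were seen, were the mitotic entry inhibitor Wee1, at 4.77 ± 0.679 against 6.18 ± 0.670 CPM, Cdca7, at 6.55 ± 1.01 against 8.17 ± 0.292 CPM, and the polymerase delta subunit gene Pold3, at 40.5 ± 0.683 against 44.7 ± 3.10 CPM, with adjusted p of 0.341, 0.349 and 0.379 in edgeR. The maintenance methyltransferase gene Dnmt1, with Rpa1 among the most abundant of the list's members, was at 126 ± 3.25 against 131 ± 4.53 CPM.

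Other mitosis genes repeated the order of the libraries seen in G2/M members. Of 64 listed 63 were tested, 38 were above and 25 below control, 0 were called, and the median log2 fold change was 0.03. Control library 3 held the highest value for 28 of the 63 and the lowest for 1, and control library 1 the lowest for 27 and the highest for 3. The median log2 deviations from the control means were -0.077, -0.026 and 0.079 in the controls and 0.037, -0.006 and 0.047 in the Cre libraries, which puts the 6 libraries in the order that G2/M members gave. Cenpk, a kinetochore gene, and Ccnf, the cyclin F gene, had the smallest p, with means of 1.33 ± 0.147 against 1.74 ± 0.173 CPM and 7.15 ± 0.200 against 8.17 ± 0.494 CPM, with adjusted p of 0.431 and 0.453 in edgeR. The microtubule genes Ckap5 and Tubb4b were the most abundant. Ckap5 averaged 97.2 ± 7.76 CPM in controls and 100.5 ± 6.10 CPM in Cre libraries, and Tubb4b 91.1 ± 7.42 and 81.3 ± 9.41 CPM.

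The Rb, E2F and DREAM genes, which include repressors of the cycle in resting cells and activators of entry, held no called gene. All 16 were tested, 9 were above and 7 below control, and 0 were called. Lin37 of the MuvB core was at 10.9 ± 0.372 against 9.81 ± 0.341 CPM and the repressor E2f4 at 43.7 ± 3.80 against 47.8 ± 1.66 CPM, with adjusted p of 0.483 and 0.50 in edgeR. The abundant Rbbp4, a histone chaperone, was at 174 ± 7.67 against 171 ± 4.66 CPM, and Rbl1, which encodes the pocket protein p107, at 113 ± 1.55 against 111 ± 4.51 CPM. Of 7 genes for histone variants, HMG proteins and tubulins 0 were called, and the smallest p was that of the tubulin gene Tuba1b, at 70.9 ± 4.49 against 59.8 ± 5.66 CPM with an adjusted p of 0.267 in edgeR. Tubb5 was at 587.5 ± 17.8 against 568 ± 32.6 CPM, Hmgn2 at 259.5 ± 13.4 against 275 ± 14.02 CPM and H2afz at 229.8 ± 12.3 against 245 ± 8.91 CPM.

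Of 18 other CDK inhibitors, G1 kinases and stress-linked regulators 9 were above and 9 below control and 0 were called. The smallest p values were those of Mdm2 and Ccng1. Mdm2 was at 84.0, 88.7 and 83.4 CPM in the controls and at 95.3, 97.3 and 97.6 CPM in the Cre libraries. Ccng1 was at 151, 135 and 147 CPM in the controls and at 162, 182 and 169 CPM in the Cre libraries. For both the groups did not overlap, as for 16.7% of the list's tested genes against 17.9% of all tested genes. The adjusted p was 0.185 and 0.198 in edgeR and 0.0925 and 0.0515 in DESeq2. The member Cdkn1a had no such order. The INK4 gene Cdkn2b, named after its values were seen, was low, at 2.31, 1.83 and 0.933 CPM in the controls and at 0.710, 0.713 and 1.19 CPM in the Cre libraries, with an adjusted p of 0.345 in edgeR. The anti-proliferative genes Btg1 and Btg2 were the most abundant of the list. Btg1 averaged 306 ± 34.3 CPM in controls and 328 ± 22.5 CPM in Cre libraries, and Btg2 227 ± 20.7 and 209 ± 9.05 CPM.

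Of the 6 lists of further genes, the regulators of macrophage self-renewal were the list in which DESeq2 called genes. The transcription factor c-Maf is known to restrain division of mature macrophages, and GM-CSF receptors carry the signal that maintains alveolar macrophages. Of 19 regulators 16 were tested, 6 were above and 10 below control, and edgeR called 0. An unadjusted p under 0.05 was reached by 4 regulators higher and 1 lower in Cre libraries, 31.2% of those tested against 12.8% of all tested genes. The genes DESeq2 called included Maf and Csf1, which rose, and Bhlhe40, which fell, with adjusted p of 0.0024, 0.0062 and 0.0215 in DESeq2, which called 2.32% of all its tested genes higher and 1.37% lower. Maf was at 1.03, 1.08 and 1.34 CPM in the controls and at 1.76, 3.38 and 2.84 CPM in the Cre libraries, with an adjusted p of 0.159 in edgeR. Csf1, the gene of the cytokine M-CSF, was at 1.49, 1.13 and 1.21 CPM in the controls and at 2.38, 8.89 and 16.9 CPM in the Cre libraries, with an adjusted p of 0.157 in edgeR. Without Cre library 1, which held the lowest Cre value of both, edgeR called both, with adjusted p of 0.02 for Maf and 0.00275 for Csf1. More genes were also called over the whole table in that fit. Without the filter on low counts edgeR called both too, while over all alternatives the adjusted p ran up to 0.468 for each.

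The complement gene C1qa, a marker of interstitial macrophages, was highest in the same libraries as Csf1, at 0.681, 1.01 and 0.722 CPM in the controls and 1.88, 12.4 and 18.2 CPM in the Cre libraries. The 10 interstitial macrophage markers went both ways: 5 were above and 5 below control, with log2 fold changes from -2.49 for Cd74 to 3.81 for C1qb, and their summed level was 1656, 1001 and 208 CPM in the controls and 158, 188 and 337 CPM in the Cre libraries. The part of such cells in the level of Csf1 was not tested. In Cre libraries 2 and 3, where Csf1 was highest, Pcna was at 164 CPM, inside the control range, and at 148 CPM, under all controls. Mki67 was at 149 CPM, inside the control range, and at 175 CPM, above all controls. A link of these levels to Csf1 was not tested. C1qa, Bhlhe40 and Myc were named after their values were seen. Bhlhe40, a repressor known to sustain alveolar macrophage division together with Bhlhe41, was at 454, 457 and 475 CPM in the controls and 364, 367 and 424 CPM in the Cre libraries, with an adjusted p of 0.195 in edgeR. Myc overlapped between genotypes, at 44.0, 33.0 and 39.8 CPM in the controls and 36.6, 40.9 and 42.9 CPM in the Cre libraries. The receptor genes Csf2rb and Csf2ra were the most abundant of the list. Csf2rb averaged 782 ± 12.2 CPM in controls and 747 ± 27.6 CPM in Cre libraries, and Csf2ra 688 ± 45.7 and 636.5 ± 30.3 CPM.

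**Figure D4:**
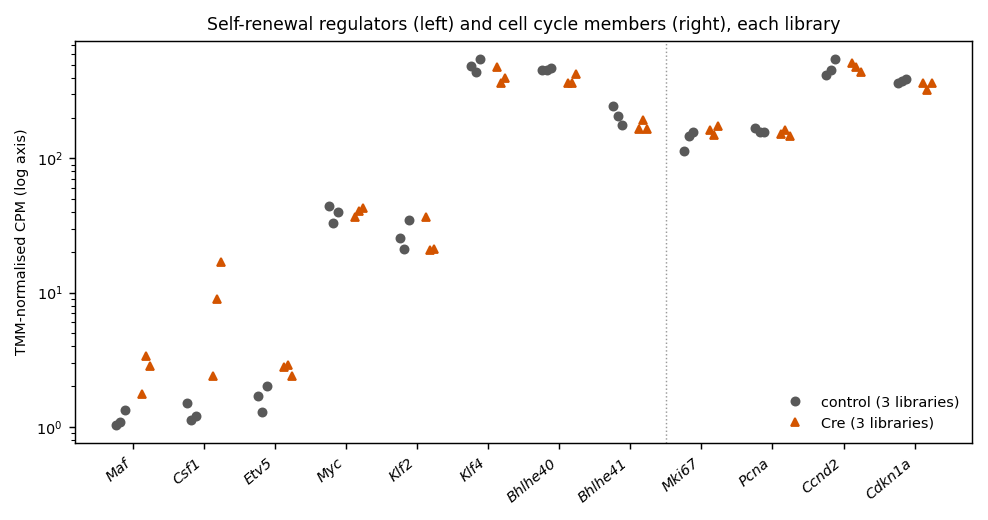
TMM-normalised CPM (log axis) of 8 self-renewal regulators and 4 cell cycle members in each control (circle) and Cre (triangle) library. Csf1 spreads over the Cre libraries from 2.38 to 16.9 CPM. Over all 6 libraries Pcna lies between 148 and 168 CPM and Mki67 between 113 and 175 CPM.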

How the data were processed

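The deposited values are raw gene-level counts, whole numbers that the authors left unnormalised. Tools named in the submitters' processing notes include cutadapt 2.5, STAR 2.6.1 and featureCounts 1.6.4 with build GRCm38; the sources used here do not state the annotation release or the strand setting. Columns were assigned by the names that the labels give each library. Of 46078 identifiers 45229 were found in GENCODE M21, used for positions and lengths. In R 4.3.3 with edgeR 4.0.16 the whole table was fitted: filterByExpr (minimum count 10), TMM, glmQLFit and glmQLFTest, two-sided, Benjamini-Hochberg adjustment over 15147 genes, no covariate. Standard errors are the absolute log2 fold change over the root of F, and 95% intervals use the fit's degrees of freedom. Values are mean ± SD of 3 libraries. The series design gives 3 mice per genotype; no label ties a library to an animal or says whether animals were pooled, so p-values measure the spread between these libraries. Libraries of a group differed beyond sampling noise (chi-square per degree of freedom 19.6 to 51.4). DESeq2 1.42.0 and limma 3.58.1 were alternatives, and the fit was tested on simulated data.

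Members given library by library are those with an unadjusted p under 0.05 and the 3 most abundant of each class; of each further list the 2 of smallest p and the 2 most abundant tested genes are named, and others were chosen after their values were seen. Members and lists were chosen with earlier results of these data known. Older symbols matched 3 listed genes. Of the 48 members 16 share exon bases with another gene, where reads cannot be told apart without a strand setting. Some genes of the lists are not reported here by name.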

Additional observations from a re-analysis of the deposited data

How the results depend on the processing

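In none of the 15 alternatives to the fit was a member called, and the smallest adjusted p was 0.202, for Bub1 in edgeR without control library 3. Over the whole table the genes called higher and lower, 1 and 1 in the fit reported, were 378 and 224 by DESeq2 and 340 and 183 without a filter on low counts. Leaving out 1 library gave 1 to 249 higher and 0 to 52 lower. The count was 249 and 37 without Cre library 1, 15 and 52 without control library 3, 8 and 1 without Cre library 2, and 1 and 0 without control library 2. The cause was not tested. The medians of the 4 classes moved by less than the spread between libraries in every alternative.

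With the replicate number as a block, 8 genes were called higher and 2 lower, and 0 members. Deviations of same-numbered libraries correlated at -0.0333, -0.187 and 0.0437, and those of differently numbered libraries at -0.209 to 0.248. The same-numbered libraries thus did not stand out, but with 3 libraries per genotype these values cannot exclude a pairing.

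Signs of differences near 0 were not stable: 29 members changed sign in some alternative, all with a reported log2 fold change of at most 0.0991 in size. Nusap1 turned to 0.0007 with RLE scaling, 0.0039 with the 1 CPM filter and 0.0010 with the block. Cdc20 turned to 0.0009, 0.0047 and 0.0061 in these, and to 0.0075 in limma-voom. Cenpf turned to 0.0019 in limma-voom and 0.0036 with the block, and Ccnd2 to -0.0002 without scaling factors. The other sign changes came from leaving out 1 library, with these ranges. In S phase they were Mcm7 -0.057 to 0.032, Rrm2 -0.046 to 0.050, Slbp -0.018 to 0.072, Mcm2 -0.067 to 0.021 and Uhrf1 -0.094 to 0.029. Next came Mcm5 -0.027 to 0.11, Cdc6 -0.10 to 0.0082, Rrm1 -0.014 to 0.069, Tyms -0.020 to 0.084 and Mcm4 -0.067 to 0.020. Next came Mcm6 -0.092 to 0.0012. In G2/M they were Ccna2 -0.080 to 0.12, Cenpe -0.023 to 0.24, Kif11 -0.015 to 0.13, Kif23 -0.058 to 0.15 and Nusap1 -0.084 to 0.073. Next came Ccnb2 -0.10 to 0.030, Aurka -0.045 to 0.046, Cenpf -0.15 to 0.15, Tpx2 -0.046 to 0.0068 and Smc2 -0.054 to 0.023. Next came Plk1 -0.14 to 0.091, Cdc20 -0.095 to 0.098, Ube2c -0.065 to 0.057 and Cdk1 -0.084 to 0.0036. Among the other genes they were Ccnd2 -0.076 to 0.12, Cdkn2c -0.077 to 0.14, Ckap5 -0.018 to 0.096, Rbbp4 -0.053 to 0.0087 and Myc -0.062 to 0.14. Next came Rb1 -0.013 to 0.081, Rbl1 -0.059 to 0.0044 and Cdkn1b -0.0047 to 0.096.

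Counting error was at most 5.04% of the level for S phase and G2/M members and 9.0% for Ccnd1, and with 3 libraries per genotype the median half-width of a 95% interval over tested genes was 0.242 on the log2 scale. Differences smaller than a member's interval were not detectable. Reads shared by overlapping genes or processed copies were not separated.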
